A study of Mus musculus with 16 samples.

Results

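The clustered protocadherins were examined in cortical neural stem cells (NSC) that carried a control shRNA or an shRNA against the long noncoding RNA *RUS*. Members were all genes of the 2 expression tables whose symbols are *Pcdha* or *Pcdhac*, *Pcdhb*, *Pcdhga*, *Pcdhgb* or *Pcdhgc* followed by a number. There were 58 members among 55471 lines: 14 of the alpha cluster, 22 of the beta cluster and 22 of the gamma cluster. The alpha members are 12 alternate genes and the C-type genes *Pcdhac1* and *Pcdhac2*. The gamma members are 12 genes of type A, 7 of type B and the C-type genes *Pcdhgc3*, *Pcdhgc4* and *Pcdhgc5*. The symbol *Pcdha11* stands on 2 lines, which are kept apart here as line 1 and line 2.

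The cells came from embryonic cortices of C57BL/6 mice at E15-16, dissected from pooled embryos of mixed sex, and grew as a monolayer. All cultures received a lentivirus after seeding, with scr shRNA (shRNA-CON) or RUS shRNA (shRNA-RUS). RNA was taken on day 5, the day on which the labels place the start of differentiation in Neurobasal medium, and on day 7. There were 4 libraries for each shRNA and day, 16 in all. Nothing in the sources says that replicates came from separate cell preparations, so p-values measure only the spread between these libraries. Medium and days in culture changed together, so that they cannot be told apart in a comparison of the days.

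Clustered protocadherins are transmembrane cadherins that bind the same isoform on a neighboring cell, and combinations of isoforms give a neuron a surface identity. They are known for self-avoidance of dendrites, for tiling of axons and for the survival of interneurons. Each alternate promoter is chosen in some cells and not in others, through binding of CTCF and cohesin and through DNA methylation, whereas C-type genes are transcribed more evenly. In the alpha and gamma clusters a variable first exon, which holds the extracellular part, is spliced to constant exons shared by the whole cluster. Beta genes have no constant exons.

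The 3 clusters lie on the plus strand of chromosome 18 (GRCm38, GENCODE vM21). The alpha cluster runs from 36930184 to 37187661, the beta cluster from 37264938 to 37524479 and the gamma cluster from 37661793 to 37841873. The constant exons of alpha are 59, 89 and 2712 bp long and belong to all 14 genes. Those of gamma are 59 and 89 bp long in all 22 genes and 1971 bp long in 17 of them. Of the 22 beta genes, 18 have a single exon. Stretches of 50 bases were compared only between genes within the span of the clusters. Those found in no other of these genes made up 9.9 to 56.0% of an alpha gene, 34.7 to 68.6% of a gamma gene and 88.0 to 100% of a beta gene. Reads from the remainder were shared out between members by the authors' quantification. Single alpha and gamma values therefore depend on that division more than sums over a cluster do. The gamma sum still holds *Pcdhgc4*, whose level is uncertain as described below.

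Levels are given as scaled TPM, that is, TPM, a relative abundance already divided by transcript length, further divided by a factor per library. Across the 16 libraries, between 25529 and 29039 genes had a TPM above 0 on the lines used. The number of reads is unknown, since the tables give no counts per library. *Gm20754*, the mouse symbol of *RUS*, had 0.235, 0.117, 0.185 and 0.167 scaled TPM in the control libraries of day 5, and 0.0592, 0.0, 0.139 and 0.345 in the knockdown. On day 7 it had 0.653, 0.661, 0.238 and 0.506 in shRNA-CON, and 0.5, 0.348, 0.0 and 0.0364 in shRNA-RUS. The groups overlapped on both days, and replicate 4 of shRNA-RUS on day 5 lay above all control libraries. In genes that differed widely between the groups this library lay with its own group, at 41.2 scaled TPM of *Smc1a* against 76.4 to 78.9 in the controls, and 73.0 of *Cdh13* against 30.9 to 35.1. On the log2 scale the differences of −0.40 (SE 0.44, limma adjusted p = 0.519) and −1.28 (SE 0.61, limma adjusted p = 0.114) did not pass the test. By RT-qPCR, the paper reports lower *RUS* in the knockdown than in the control. Groups are named by their labels, and the main day 5 results are also given without replicate 4 of shRNA-RUS.

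Every marker gene of radial glia and of neurons was above 0 in at least 1 library, and the summed levels of several marker lists moved with day and shRNA. The counts of markers called below stand beside 14.8% of all genes that rose and 17.9% that fell on day 5, and 23.4% and 25.8% on day 7. The summed level of 8 markers of neural stem cells and radial glia ranged from 12500 to 14700 scaled TPM in shRNA-CON on day 5 and from 17800 to 21300 in shRNA-RUS. On day 7 it ranged from 6880 to 7130 and from 7060 to 7720. *Vim* and *Fabp7* carried this sum, and the list moved both ways: 3 of 8 markers rose and 2 fell on day 5, and 2 rose and 4 fell on day 7, with *Nes* and *Hes1* lower on both days. The sum of 6 astrocyte markers ranged from 4400 to 4610 against 5950 to 6330 on day 5, and from 2540 to 2610 against 3210 to 3350 on day 7, when 3 of 6 rose and 1 fell, after 2 and 0 on day 5. The sum of 6 microglia markers ranged from 77.7 to 82.8 against 66.7 to 84.7 on day 5, and from 181 to 193 against 76.2 to 97.6 on day 7, when 6 of 6 fell, after 2 on day 5. Markers of the oligodendrocyte lineage ranged from 41.6 to 51.2 against 26.0 to 31.4 on day 5, and from 93.1 to 135 against 48.0 to 95.8 on day 7, with 3 and 4 of 6 lower and 0 higher. Markers of fibroblasts and vessels ranged from 33.1 to 36.8 against 28.5 to 39.3 on day 5, and from 20 to 21.6 against 32.2 to 36.2 on day 7, when 2 of 6 tested rose and 1 fell. In that sum *Pdgfrb* went from a mean of 10.6 to 26.3 scaled TPM and *Kdr* from 5.83 to 2.3. Neuron markers ranged from 524 to 602 against 555 to 612 on day 5 and from 756 to 839 against 744 to 871 on day 7, with 3 of 8 higher and 2 lower on day 5 and 4 higher and 2 lower on day 7. No marker was listed at 0 in all 16 libraries. The part of these cell types in the results below was not tested, and in bulk RNA fewer cells of a type and less RNA per cell cannot be told apart.

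By TPM, gamma transcripts made up most of the clustered protocadherin RNA in all 4 groups. In shRNA-CON on day 5, the mean summed level was 15.6 ± 0.758 scaled TPM for alpha, 35.2 ± 2.41 for beta and 556 ± 17.8 for gamma (SD, n = 4). The median member had 0.589 scaled TPM in alpha, 1.25 in beta and 6.91 in gamma. A mean above 1 scaled TPM was reached by 2 of 14 alpha, 13 of 22 beta and 21 of 22 gamma genes. *Pcdhgc3*, which promotes branching of dendrites, held 42.2 to 43.5% of the gamma sum in the 4 libraries, and *Pcdhgc4*, known for the survival of interneurons, held 29.4 to 32.3%. *Pcdhac2*, known for the tiling of serotonergic axons, held 45.4 to 51.1% of the alpha sum. *Pcdhb22* held 15.1 to 17.2% of the beta sum, the largest share of any beta gene.

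The level of *Pcdhgc4* is uncertain. The authors' base mean, their average of normalized counts over the 8 libraries of a day, was 2.1 per TPM for *Pcdhgc4* on day 5 and 12.1 on day 7. For *Pcdhgc3* it was 60.3 and 54.8 per TPM, and the median over the gamma genes was 62.15 and 55.0. The base mean of *Pcdhgc4* was 424 on day 5 and 777 on day 7, while its mean deposited TPM was 202 and 64.1, so these measures ordered the days differently. Base means were normalized by the authors within each day, and TPM within each library. *Pcdha4* stood apart in the same way, with 0.46 per TPM on day 5 and 0.201 on day 7 against a median of 42.75 in alpha on each day.

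**Figure D1:**
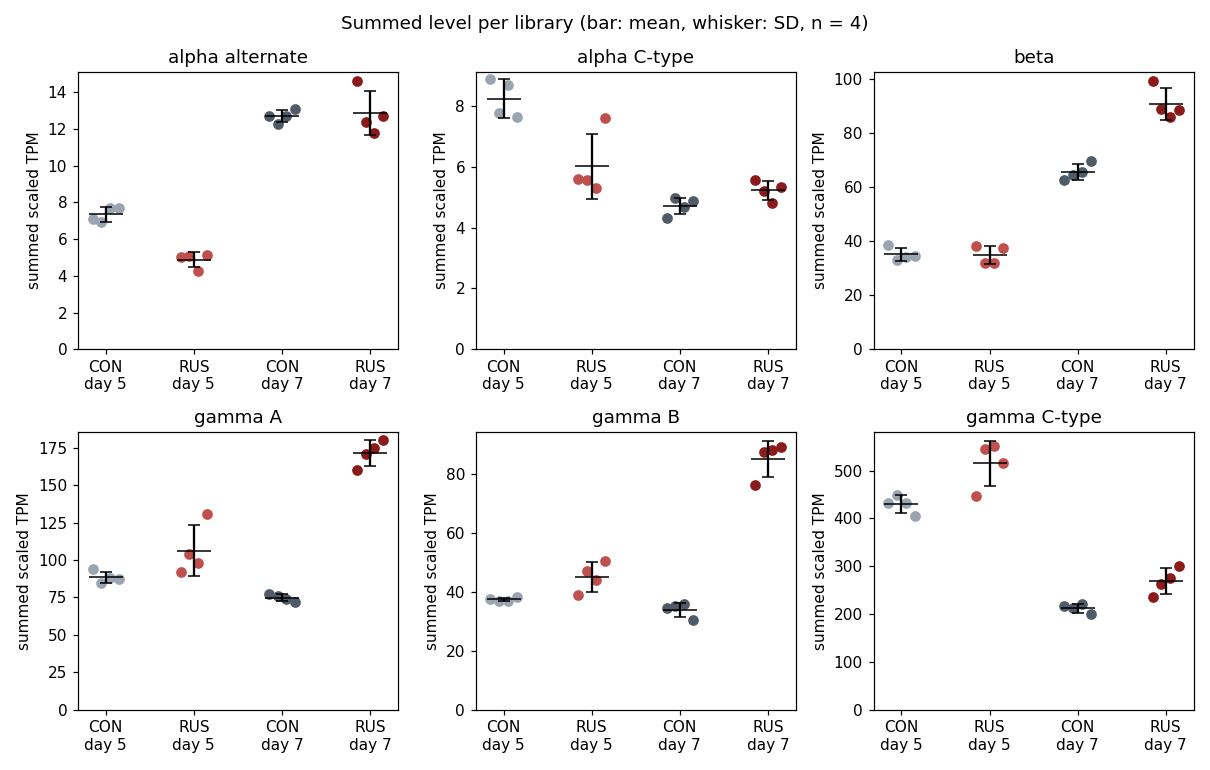
Summed scaled TPM of each subfamily in every library, by shRNA and day, with the mean as a bar and the SD as a whisker (n = 4), each vertical axis starting at 0. Gamma A and gamma B are highest in shRNA-RUS on day 7, alpha alternate genes and beta genes are higher on day 7 than on day 5, and both C-type sums are lower on day 7 than in shRNA-CON on day 5.

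Day 7 was compared with day 5 in shRNA-CON to describe the course of differentiation without knockdown. Beta genes and 8 of 12 alternate alpha genes rose, and the 5 C-type genes were called lower, among them *Pcdhgc4*, whose base mean was higher on day 7 as given above. Among 57 members tested, 29 rose and 13 fell, beside 26.9% of all 23789 genes tested that rose and 21.6% that fell (limma, adjusted p under 0.05). All 21 beta genes tested rose, by 0.57 to 1.68 on the log2 scale with a median of 0.84. In alpha, 8 of 12 alternate genes rose, with a median of 0.88 over the 12. In gamma A and gamma B, 8 of 19 fell and none rose, with a median of −0.20, where the count at an unadjusted p under 0.05 was also 0 for an increase in gamma. Over all genes the median was 0.067 here and 0.205 with TPM as deposited, which is the larger shift between scalings. With TPM as deposited, 3 of the 19 fell and 2 rose, and with quantile normalization 12 fell and 0 rose, so the direction of single gamma A and B genes depends on the scaling, while beta and C-type directions did not change with it.

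*Pcdhb6* rose most among members of at least 0.5 TPM. The gene had 1.04, 0.605, 0.68 and 0.719 scaled TPM on day 5 and 2.58, 2.68, 2.53 and 2.62 on day 7 in shRNA-CON. Every day 7 library lay above every day 5 library, and the gene rose by 1.68 on the log2 scale (SE 0.24, limma adjusted p = 2.62e-05). *Pcdhb16* rose by 1.51 (SE 0.17, limma adjusted p = 2.55e-06), *Pcdhb10* by 1.25 (SE 0.12, limma adjusted p = 5.41e-07) and *Pcdhb11* by 1.24 (SE 0.13, limma adjusted p = 1.57e-06). *Pcdhb22*, the most abundant beta gene, rose by 0.57 (SE 0.069), from a mean of 5.54 ± 0.46 to 8.27 ± 0.407 scaled TPM (SD, n = 4). Among the most abundant alternate alpha genes, *Pcdha9* rose by 0.80 (SE 0.18, limma adjusted p = 0.00148), while *Pcdha12* had 0.18 (SE 0.11, limma adjusted p = 0.179) and line 2 of *Pcdha11* had 0.87 (SE 0.41, limma adjusted p = 0.0974).

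Of the gamma A and B genes named, *Pcdhga11* fell by 0.38 (SE 0.071, limma adjusted p = 0.000325) and kept its call under all 25 other settings. *Pcdhgb2* fell by 0.23 (SE 0.066, limma adjusted p = 0.0102) and was not called with TPM as deposited or with scaling to the 75th percentile.

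The C-type genes fell, unlike the beta genes and the alternate alpha genes that were called. *Pcdhgc5*, whose protein binds GABA-A receptors, had 24.2, 24.1, 21.5 and 20.6 scaled TPM on day 5 and 7.31, 5.96, 8.04 and 6.77 on day 7 in shRNA-CON. The groups were far apart, and it fell by 1.68 on the log2 scale (SE 0.11, limma adjusted p = 6.09e-09). *Pcdhgc4* had 167, 184, 169 and 156 on day 5 and 50.9, 44.7, 49.2 and 46.9 on day 7, and was called lower by TPM, at −1.81 (SE 0.13, limma adjusted p = 1.98e-08), with the doubt about its TPM given above. *Pcdhgc3* fell by 0.60 (SE 0.084, limma adjusted p = 2.06e-05), *Pcdhac2* fell by 0.76 (SE 0.099, limma adjusted p = 1.13e-05) and *Pcdhac1* fell by 1.03 (SE 0.23, limma adjusted p = 0.00175). *Pcdhac1* stood at a mean of 0.662 ± 0.064 scaled TPM on day 5 and 0.284 ± 0.111 on day 7 (SD, n = 4). The share of *Pcdhac2* in the alpha sum went from 45.4 to 51.1% on day 5 to 24.4 to 26.2% on day 7.

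**Figure D2:**
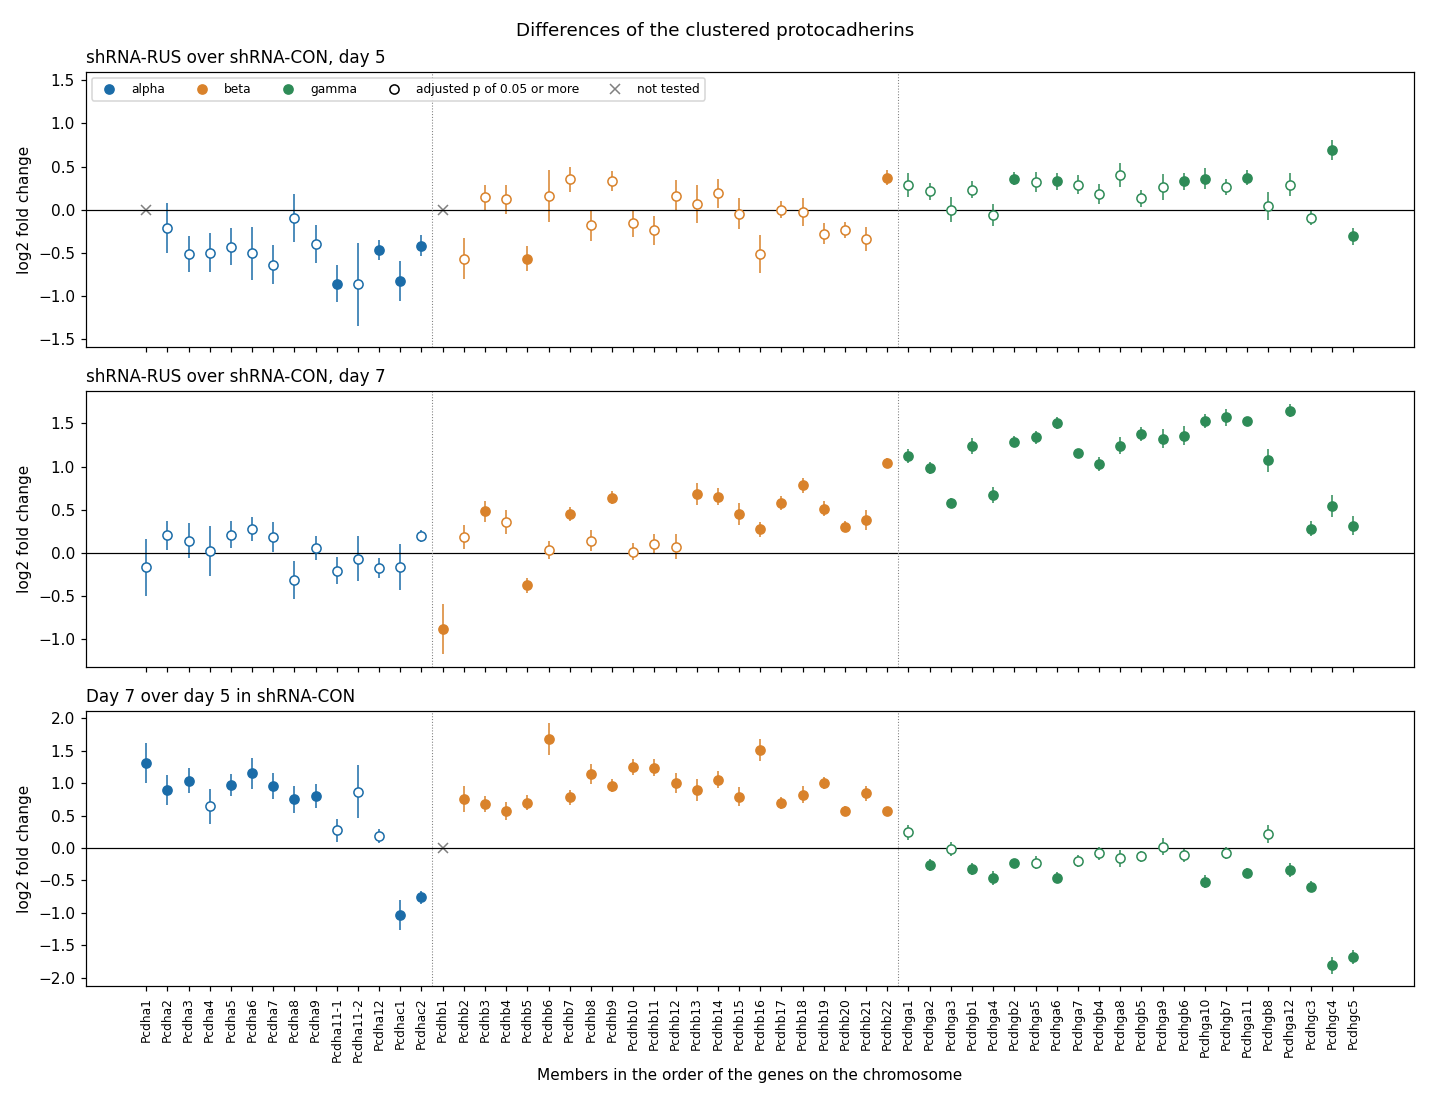
Log2 fold change (vertical axis) of each member in the order of the genes on the chromosome, for the knockdown on day 5 (top), the knockdown on day 7 (middle) and day 7 over day 5 in shRNA-CON (bottom). Whiskers are limma's SE, filled points passed an adjusted p of 0.05, and crosses mark members that were not tested. On day 7 all gamma genes lie above 0, between 0.28 and 1.65, and in shRNA-CON the tested beta genes lie above 0 and the C-type genes below it.

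The knockdown was compared with the control within each day. On day 5, differences were small and depended on the scaling of the libraries. Of 56 members tested, 7 were called higher and 6 lower in shRNA-RUS, beside 14.8% and 17.9% of all 22581 genes tested. *Pcdha1* and *Pcdhb1* were under the minimum mean of 0.1 TPM. In alpha, 4 of 13 fell and none rose (0 also at an unadjusted p under 0.05), with a median log2 fold change of −0.50. In beta, 1 of 21 rose and 1 fell, with a median of −0.03, and in gamma 6 of 22 rose and 1 fell, with a median of 0.27. The median over all genes was −0.061. With TPM as deposited, 1 member was called higher and 10 lower, and with quantile normalization 17 were called higher and 1 lower. The alpha median stayed below 0 and the gamma median above 0 in every scaling tried, and the beta median was −0.18 with TPM as deposited and 0.13 with quantile normalization. Without replicate 4 of shRNA-RUS, 6 were called higher and 6 lower. With any other library left out, 4 to 12 were higher, with 12 without replicate 1 of shRNA-RUS, and 1 to 5 were lower, with 1 without replicate 3 of shRNA-CON.

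The summed alpha level was 16.0, 14.7, 16.4 and 15.3 scaled TPM in the shRNA-CON libraries of day 5 and 10.6, 10.6, 9.55 and 12.8 in the shRNA-RUS libraries. All shRNA-RUS libraries were below all controls. The log2 ratio of the means was −0.52, and −0.60 without replicate 4 of shRNA-RUS. *Pcdha12*, the most abundant alternate alpha gene, had 1.94, 1.68, 2.02 and 1.79 scaled TPM in the control libraries and 1.31, 1.2, 1.28 and 1.42 in the knockdown. The groups did not overlap, and it fell by 0.47 (SE 0.12, limma adjusted p = 0.0145). Line 1 of *Pcdha11* fell by 0.86 (SE 0.22, limma adjusted p = 0.0138), *Pcdhac1* by 0.83 (SE 0.23, limma adjusted p = 0.0229) and *Pcdhac2* by 0.42 (SE 0.12, limma adjusted p = 0.025). Of these, the *Pcdhac2* groups overlapped, since replicate 4 of shRNA-RUS reached 7.11 scaled TPM against a lowest control of 6.96. Line 2 of *Pcdha11* and *Pcdha9* had −0.87 (SE 0.48, limma adjusted p = 0.194) and −0.40 (SE 0.22, limma adjusted p = 0.186).

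The summed beta level was 38.6, 33.0, 34.3 and 34.7 scaled TPM in the control and 38.2, 32.0, 32.1 and 37.6 in the knockdown, with overlapping groups and a log2 ratio of −0.01. *Pcdhb22* had 5.84, 4.99, 5.33 and 5.98 in the control and 7.41, 6.66, 7.22 and 7.45 in the knockdown. These groups did not overlap, and the gene rose by 0.37 (SE 0.084, limma adjusted p = 0.00825). *Pcdhb5* had 1.76, 1.89, 2.03 and 1.8 against 1.54, 1.34, 0.995 and 1.08, and fell by 0.57 (SE 0.15, limma adjusted p = 0.02). *Pcdhb17* and *Pcdhb20* had 0.00 (SE 0.10, limma adjusted p = 0.992) and −0.24 (SE 0.091, limma adjusted p = 0.0689).

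In gamma, the summed level was 564, 572, 558 and 531 scaled TPM in the control and 579, 696, 693 and 699 in the knockdown. All knockdown libraries were higher, with a log2 ratio of 0.26. Without *Pcdhgc4* in the sum the ratio was 0.02 and the groups overlapped, and with TPM as deposited it was then −0.13. *Pcdhgc3* held most of that remainder. The gamma A and B genes alone summed to a mean of 126 ± 3.9 in the control and 151 ± 21.8 in the knockdown (SD, n = 4), with overlapping groups. Their median log2 fold change was 0.28, between 0.13 with TPM as deposited and 0.42 with quantile normalization, and 17 of 19 were above 0. *Pcdhgc4* had 229, 294, 335 and 240 in the knockdown against 156 to 184 in the control, and rose by 0.69 (SE 0.12, limma adjusted p = 0.00208). *Pcdhga11* rose by 0.37 (SE 0.088, limma adjusted p = 0.0112), *Pcdhga10* by 0.36 (SE 0.12, limma adjusted p = 0.0416) and *Pcdhgb2* by 0.36 (SE 0.077, limma adjusted p = 0.00657), each without overlap of the groups. *Pcdhgb6* rose by 0.33 (SE 0.10, limma adjusted p = 0.0333) with overlapping groups. *Pcdhgc5* fell by 0.31 (SE 0.10, limma adjusted p = 0.0454), and *Pcdhgc3* had −0.10 (SE 0.079, limma adjusted p = 0.353). Replicate 4 of shRNA-RUS was highest in gamma A, at 131 scaled TPM against 92.2, 104 and 98.0, and without it the gamma median was 0.17. The calls of *Pcdhac1*, *Pcdhac2*, *Pcdha12*, *Pcdhb5*, *Pcdhgb6* and *Pcdhgc5* were each lost without at least 1 library. Of 17 other settings, *Pcdhgb6* lost its call under 12, *Pcdhgc5* under 10, *Pcdhac2* under 7, *Pcdhb5* under 4 and *Pcdha12* under 3. *Pcdhac1* lost its call under 7 of 16. Those of *Pcdhb22* and *Pcdhgb2* were lost with TPM as deposited (limma adjusted p = 0.136 for each). That of *Pcdhga11* was lost with TPM as deposited (limma adjusted p = 0.185), with scaling to the 75th percentile and with a replicate block. Without replicate 1, 2 or 4 of shRNA-CON or replicate 2 of shRNA-RUS, 2 of 19 gamma A and B genes were called, and *Pcdhga10* was not among them. Without replicate 4 of shRNA-RUS the log2 ratio of the sums was −0.04 in beta and 0.24 in gamma. Of 11 calls of single genes recomputed without that library, that of *Pcdhgb6* was lost (limma adjusted p = 0.0584).

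On day 7, all 22 gamma genes and 13 of 22 beta genes were higher in shRNA-RUS, and the alpha genes were not called. Of 58 members tested, 35 rose and 2 fell, beside 23.4% and 25.8% of all 24606 genes tested. In gamma 22 of 22 rose, with a median log2 fold change of 1.24, in beta 13 of 22 rose and 2 fell, with a median of 0.37, and in alpha none of 14 was called, with a median of 0.03. A single alpha gene, of the C-type, was called higher with eBayes without a trend, with a filter at 1 TPM, with quantile normalization and without replicate 3 of shRNA-RUS. At an unadjusted p under 0.05, 1 alpha gene was higher and 0 were lower. The median over all genes was −0.029. In 34 members all shRNA-RUS libraries were above all shRNA-CON libraries, and in 3 all were below, beside 22.3% and 24.7% of all genes. The 34 include 20 of 22 gamma genes.

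The 12 gamma A genes and the 7 gamma B genes rose together. The summed gamma A level was 77.0, 75.9, 74.1 and 72.0 scaled TPM in shRNA-CON and 160, 171, 175 and 180 in shRNA-RUS. The summed gamma B level was 34.5, 35.1, 35.9 and 30.5 in shRNA-CON and 76.3, 87.6, 88.2 and 89.2 in shRNA-RUS. All knockdown libraries lay above all controls, with ratios of the means of 2.29 and 2.51. Single genes rose by 0.58 (*Pcdhga3*) to 1.65 (*Pcdhga12*) on the log2 scale. In the order of the genes on the chromosome, the first 9 of the 19 had a median of 1.16 and the last 10, nearer the C-type genes, a median of 1.37, which is given as a description.

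*Pcdhga12*, the last gamma A gene before the C-type genes, had 3.84, 3.92, 3.51 and 3.5 scaled TPM in shRNA-CON and 10.6, 12, 11.6 and 12.7 in shRNA-RUS. The lowest knockdown library was far above the highest control, and the gene rose by 1.65 (SE 0.077, limma adjusted p = 3.33e-07). *Pcdhga11* had 9.12, 8.65, 8.32 and 8.58 against 24.0, 24.7, 25.3 and 25.9, and rose by 1.53 (SE 0.049, limma adjusted p = 7.51e-08). *Pcdhgb7* had 5.35, 5.05, 5.27 and 4.3 against 12.9, 15.6, 15.7 and 15.4, and rose by 1.57 (SE 0.095, limma adjusted p = 1.33e-06). In these genes the spread within a group was small beside the difference.

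*Pcdhga10* rose by 1.53 (SE 0.079, limma adjusted p = 5.66e-07), *Pcdhgb5* by 1.38 (SE 0.081, limma adjusted p = 1.14e-06), *Pcdhgb6* by 1.36 (SE 0.11, limma adjusted p = 6.06e-06) and *Pcdhgb2* by 1.29 (SE 0.066, limma adjusted p = 5.31e-07). *Pcdhga7*, the most abundant gamma A gene, had 12.9, 12.5, 12.3 and 12.6 scaled TPM in shRNA-CON and 26.0, 28.5, 28.7 and 28.5 in shRNA-RUS, and rose by 1.16 (SE 0.048, limma adjusted p = 1.98e-07). *Pcdhga3* had 10.4, 11, 11.3 and 10.2 against 14.9, 15.7, 16.8 and 16.4, the smallest rise of the 19 at 0.58 (SE 0.060, limma adjusted p = 3.58e-05). *Pcdhgb8*, which GENCODE lists as a polymorphic pseudogene, rose by 1.07 (limma adjusted p = 0.000103), and was named after its values were seen.

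**Figure D3:**
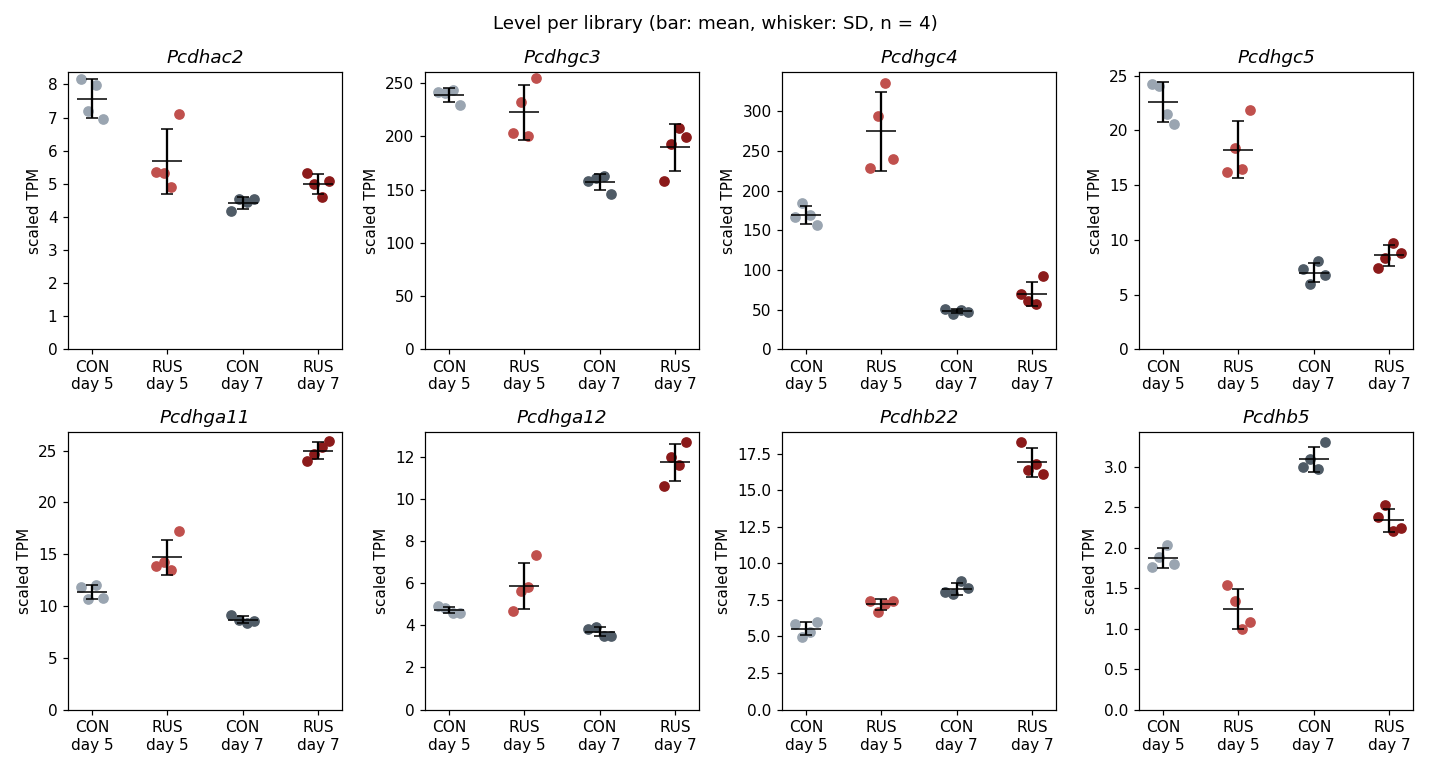
Scaled TPM of 8 members in every library, by shRNA and day, with the mean as a bar and the SD as a whisker (n = 4), each vertical axis starting at 0. Pcdhga11, Pcdhga12 and Pcdhb22 are highest in shRNA-RUS on day 7, Pcdhb5 is lower in shRNA-RUS on each day, and Pcdhgc4 and Pcdhgc5 are at a fraction of their day 5 levels on day 7.

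The 3 gamma C-type genes rose less. *Pcdhgc4* had 50.9, 44.7, 49.2 and 46.9 scaled TPM in shRNA-CON and 69.4, 61.0, 57.4 and 91.9 in shRNA-RUS, without overlap, and rose by 0.54 (SE 0.13, limma adjusted p = 0.00649). *Pcdhgc3* had 158, 161, 163 and 146 against 158, 193, 208 and 199, and rose by 0.28 (SE 0.083, limma adjusted p = 0.0192). *Pcdhgc5* had 7.31, 5.96, 8.04 and 6.77 against 7.46, 8.38, 9.75 and 8.83, and rose by 0.31 (SE 0.11, limma adjusted p = 0.0439). In *Pcdhgc3* and *Pcdhgc5* the groups overlapped. The call of *Pcdhgc3* was lost without replicate 4 of shRNA-CON or without replicate 3 or 4 of shRNA-RUS of that day (limma adjusted p = 0.0513 to 0.0515). The call of *Pcdhgc5* was lost under 9 of 17 other settings (limma adjusted p up to 0.114).

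The share of gamma A and B genes in the gamma cluster is given by group. Gamma A and gamma B together made up 33.5 to 35.5% of the sum of gamma A, gamma B and *Pcdhgc3* in shRNA-CON on day 5 and 39.2 to 41.6% in shRNA-RUS. On day 7 the share was 40.3 to 41.3% in shRNA-CON and 55.8 to 59.8% in shRNA-RUS. *Pcdhgc4* is left out of this share because of the doubt about its TPM. On each day every shRNA-RUS library was above every shRNA-CON library, while the shRNA-CON range of day 7 lay within the shRNA-RUS range of day 5.

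Among beta genes on day 7, *Pcdhb22* rose most. It had 8.07, 7.87, 8.81 and 8.31 scaled TPM in shRNA-CON and 18.3, 16.4, 16.8 and 16.1 in shRNA-RUS. No library of either group came near the other group, and the rise was 1.04 (SE 0.059, limma adjusted p = 9.82e-07). It is the last beta gene before the gamma cluster, and held 18.2 to 19.5% of the beta sum in shRNA-RUS against 11.9 to 13.4% in shRNA-CON. *Pcdhb17* had 5.27, 4.87, 5.64 and 5.97 against 8.96, 7.92, 7.51 and 7.98, and rose by 0.58 (SE 0.081, limma adjusted p = 0.000259). *Pcdhb20* rose by 0.30 (SE 0.065, limma adjusted p = 0.00394) and *Pcdhb16* by 0.27 (SE 0.090, limma adjusted p = 0.0332).

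*Pcdhb5* fell on day 7 as on day 5. It had 2.99, 3.1, 2.97 and 3.31 scaled TPM in shRNA-CON and 2.38, 2.52, 2.21 and 2.24 in shRNA-RUS, a log2 difference of −0.38 (SE 0.086, limma adjusted p = 0.00487). The other beta gene that fell was *Pcdhb1*, at a mean of 0.16 ± 0.0379 against 0.0434 ± 0.02 scaled TPM (SD, n = 4), near the lower limit of what was tested (limma adjusted p = 0.0282). All 21 beta genes tested had risen with time in the control. Of those named for the largest rises, *Pcdhb16* was called higher on day 7, as given above. *Pcdhb6*, *Pcdhb10* and *Pcdhb11* had 0.03 (SE 0.10), 0.01 (SE 0.099) and 0.10 (SE 0.12) on that day (limma adjusted p = 0.850, 0.947 and 0.526). The summed beta level was 62.6, 64.5, 65.8 and 69.6 in shRNA-CON and 99.3, 89.0, 85.9 and 88.4 in shRNA-RUS, and the groups did not overlap.

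In alpha on day 7, summed levels were 17.1, 17.3, 17.4 and 18 scaled TPM in shRNA-CON and 20.1, 17.6, 16.7 and 18 in shRNA-RUS. The groups overlapped, and the log2 ratio was 0.06. *Pcdhac2* had 4.17, 4.53, 4.44 and 4.55 against 5.33, 4.99, 4.6 and 5.09, with no overlap and a log2 difference of 0.19 (SE 0.071, limma adjusted p = 0.0532). *Pcdha12* had −0.18 (SE 0.12, limma adjusted p = 0.241), *Pcdha9* had 0.05 (SE 0.14, limma adjusted p = 0.827) and *Pcdhac1* had −0.17 (SE 0.27, limma adjusted p = 0.627). The 2 lines of *Pcdha11* had −0.21 (SE 0.16) and −0.07 (SE 0.26).

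The change of the knockdown difference between the days was tested in the fit of all 16 libraries. This comparison shares its libraries with those above. The difference was higher on day 7 in 30 of 57 members and lower in 0, beside 15.2% and 14.6% of all 23789 genes, and 0 members were lower at an unadjusted p under 0.05. These were 21 of 22 gamma genes, 7 of 21 beta genes and 2 of 14 alpha genes. All 19 gamma A and B genes were among them, with changes of 0.57 to 1.35 on the log2 scale and a median of 1.00, against a median of 0.038 over all genes, or 0.192 with TPM as deposited.

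*Pcdhga12* changed most, by 1.35 (SE 0.15, limma adjusted p = 1.58e-05), followed by *Pcdhgb7* with 1.30 (SE 0.13, limma adjusted p = 7.17e-06), *Pcdhgb5* with 1.23 (SE 0.13, limma adjusted p = 9.29e-06) and *Pcdhga10* with 1.16 (SE 0.14, limma adjusted p = 3.42e-05). *Pcdhgc4* was the gamma gene without a call, at −0.16 (SE 0.19, limma adjusted p = 0.557). In beta, *Pcdhb16* had 0.78 (SE 0.24, limma adjusted p = 0.0237) and *Pcdhb22* had 0.65 (SE 0.098, limma adjusted p = 0.000196), while *Pcdhb5* had 0.18 (SE 0.17, limma adjusted p = 0.455). In alpha, *Pcdhac2* had 0.59 (SE 0.14, limma adjusted p = 0.00503), with 0.748-fold on day 5 and 1.14-fold on day 7. The second alpha gene called was *Pcdha7*, with 0.82 (limma adjusted p = 0.0356), named after its values were seen.

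**Figure D4:**
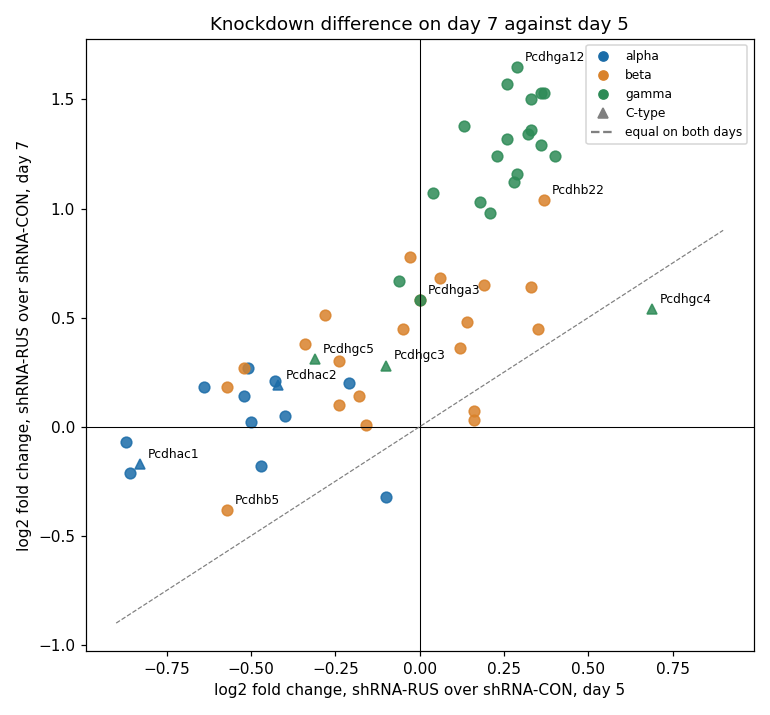
Log2 fold change of shRNA-RUS over shRNA-CON on day 5 (horizontal axis) and on day 7 (vertical axis) for the members tested on each day, colored by cluster, with triangles for C-type genes and a dashed line where both days would be equal. Gamma A and B genes lie far above the dashed line, alpha genes are left of 0 on day 5 and near 0 on day 7, and Pcdhgc4 is on the other side of the line.

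Other cadherin genes were counted for comparison, beside 14.8% of all genes that rose and 17.9% that fell on day 5, and 23.4% and 25.8% on day 7. Of 11 protocadherins tested that lie outside the clusters, most of them delta protocadherins, 2 rose and 3 fell on day 5 (18.2% and 27.3%), and 7 rose and 2 fell on day 7 (63.6% and 18.2%). *Pcdh9* rose by 0.90 (SE 0.12, limma adjusted p = 0.000482) and 1.27 (SE 0.080, limma adjusted p = 1.72e-06), and *Pcdh10* by 0.36 and 0.46. *Pcdh19* rose by 0.96 on day 7 (SE 0.077, limma adjusted p = 7.5e-06). *Pcdh11x* fell by 0.64 and 0.72, and *Pcdh15*, a part of hair cell tip links, by 0.67 and 0.50. Of 20 other cadherins, 5 rose and 3 fell on day 5 (25% and 15%), and 11 rose and 2 fell on day 7 (55% and 10%). *Cdh13*, a cadherin held by a lipid anchor, rose by 1.18 (SE 0.054, limma adjusted p = 7.44e-06) and 1.06 (SE 0.057, limma adjusted p = 7.33e-07). *Cdh6* rose by 0.56 and 0.72 and *Cdh20* by 0.76 on day 7, while *Celsr2* and *Celsr1*, of planar cell polarity, fell on day 5 by 0.55 and 0.31.

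Of 27 genes that regulate the clusters, 2 rose and 11 fell on day 5 (7.41% and 40.7%, beside 14.8% and 17.9% of all genes), and 13 rose and 5 fell on day 7 (48.1% and 18.5%, beside 23.4% and 25.8%). *Smc1a*, a cohesin subunit, had a day 5 mean of 77.5 ± 1.09 scaled TPM in the control and 38.2 ± 2.93 in the knockdown (SD, n = 4). It fell by 1.02 (SE 0.060, limma adjusted p = 1.5e-05), and by 0.74 on day 7 (SE 0.068, limma adjusted p = 1.7e-05). The cohesin subunits *Rad21* and *Smc3*, named after their values were seen, moved less. Their means were 92.9 and 38.9 in the control against 89.2 and 36.1 in the knockdown on day 5. On day 7 they were 82.1 and 41.3 against 90.4 and 44.0. *Uhrf1*, which maintains DNA methylation, fell by 0.75 and 0.91. *Wiz* and *Rest*, a partner of the G9a methyltransferase and a repressor of neuronal genes, rose by 0.35 and 0.32 on day 5 and by 0.71 and 0.75 on day 7. The part of these genes in the levels of the clustered protocadherins was not tested.

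Of 25 partners and effectors of the proteins, 11 rose and 6 fell on day 5 (44% and 24%, beside 14.8% and 17.9% of all genes), and 17 rose and 4 fell on day 7 (68% and 16%, beside 23.4% and 25.8%). *Psenen*, a subunit of the gamma-secretase that cleaves protocadherins, rose by 0.68 and 0.36, and *Brk1* and *Abi1*, of the WAVE complex that binds their cytoplasmic parts, rose by 0.65 and 0.46 on day 5 and by 0.31 and 0.71 on day 7. *Wasf1* of the same complex fell by 0.30 and 0.22, and *Cyfip2* fell by 0.42 on day 5. *Ptk2b*, the kinase Pyk2 that the constant domains inhibit, fell by 0.60 (SE 0.083, limma adjusted p = 0.000663) and 0.51 (SE 0.089, limma adjusted p = 0.00105). *Prkca*, a kinase downstream of it, rose by 0.88 on day 7 (SE 0.051, limma adjusted p = 1.03e-06).

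Of 17 genes beside or between the clusters, 6 rose and 3 fell on day 5 (35.3% and 17.6%, beside 14.8% and 17.9% of all genes). On day 7, 4 rose and 5 fell (23.5% and 29.4%), which is near the 23.4% and 25.8% of all genes. *Diaph1*, a formin gene, rose by 0.30 (SE 0.092, limma adjusted p = 0.0359) and 0.79 (SE 0.088, limma adjusted p = 5.69e-05). *Fchsd1* rose by 0.72 and 1.35 and *Gnpda1* by 0.43 and 0.74. *Ndfip1* fell by 0.37 and 0.51, *Hars2* fell by 0.29 on day 5, and *Arap3* fell by 1.16 on day 7. Within the span of the clusters, 27 other genes are annotated, of which 12 were tested on day 5 with 0 higher and 1 lower, and 19 on day 7 with 5 higher and 0 lower, beside 23.4% and 25.8% of all genes, so that the number of higher genes is near that of any genes. The 5 are *Gm10544*, *Gm38097*, *Gm26672*, *BC037039* and *Gm38182*, named after their values were seen. *Gm38182* shares exon bases with gamma genes, and the other 4 lie on the minus strand. Whether reads were assigned by strand is not given in the sources used here, so reads of these genes and of the members around them cannot be told apart with certainty.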

How the data were processed

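Expression was analysed in 16 libraries of cortical NSC, 4 for each shRNA and day, grouped by the labels. PolyA libraries were read on an Illumina NextSeq. The authors mapped reads to mm10 with STAR, using a GRCm38 annotation, and estimated transcript abundance with RSEM. Tool versions and a strand setting are not given in the sources used here. The authors deposited, for each day, TPM of every library and a base mean, that is, their normalized count signal averaged over the 8 libraries of the day. The deposited tables also hold the authors' own DESeq2 comparison (log2 fold change, its error, test score, p-values). Nothing of that comparison was used. The tables hold no counts per library, so depth is unknown and a count test was not possible. No detection limit was set from the base means, which average over the libraries of a day.

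On day 5, 3 lines without a gene symbol held 0.134 to 0.386% of the TPM and were left out. For comparisons of the days, lines were matched by symbol and place, and 106 lines without a match were left out. Each library was scaled by the median of its ratios to the geometric mean over libraries, taken from genes of at least 1 TPM in every library of the fit. A pseudocount of 0.1 was added before the log2, so differences of low genes are understated. Genes averaging 0.1 TPM or more were tested with limma 3.58.1 in R 4.3.3 (lmFit, eBayes with a trend, two-sided, Benjamini-Hochberg over all genes, threshold 0.05). Day fits had 8 libraries, and the fit across days had 16. Printed levels use the factors of the 16 libraries. The test was checked on simulated data. Sums over members are given without a test. Python 3.11.15, pandas 2.3.3 and matplotlib 3.10.9 were used. Positions and exons came from GENCODE vM21.

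Named were the 3 most abundant members of each alternate subfamily, all 5 C-type genes, in each comparison the 4 largest called increases and decreases among members of at least 0.5 TPM, in each list of other genes the 2 largest called increases and decreases on each day with at least 1 TPM, and *Gm20754*. The members, lists and tests were chosen with earlier results of these data known. Alternatives were other pseudocounts, filters and scalings, eBayes without a trend, a replicate block and leaving out each library in turn. Sums without *Pcdhgc4* (also with TPM as deposited) or *Pcdhac2* were added after the data were seen.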

Additional observations from a re-analysis of the deposited data

Results flagged for a closer look

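Of 116 groups of 4 libraries (26 named members and 3 sums in 4 groups), 12 had a library apart from the other 3 by a gap, as a share of the range, above Dixon's critical value for 4 samples, which chance gives in about 1 of 20 groups. In shRNA-RUS on day 5, replicate 1 was lowest for the summed gamma level, at 579 scaled TPM against a median of 696 in the others. In the same group, replicate 4 was highest for *Pcdhga3* with 14.7 and for *Pcdhga10* with 8.07 scaled TPM. In shRNA-CON on day 5, replicate 1 was highest for *Pcdhb17* with 3.84 and *Pcdhga7* with 16.1, and replicate 4 was lowest for *Pcdhgc3* with 229. In shRNA-CON on day 7, replicate 3 was highest for *Pcdhgb2* with 6.05 and replicate 4 was lowest for *Pcdhgb6* with 7.96. In shRNA-RUS on day 7, replicate 1 was lowest for *Pcdhga7* with 26.0 and *Pcdhgb7* with 12.9, and replicate 4 was highest for *Pcdha12* with 2.23 and *Pcdhac1* with 0.255.

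In 16 of 26 named members the knockdown difference was not the same on both days by limma's interaction term, always higher on day 7. Over all 23789 genes tested, 15.2% were higher and 14.6% lower. Members named for the largest changes in this comparison are among the 16, so the count depends in part on the naming. The change on the log2 scale was 1.35 for *Pcdhga12*, 1.3 for *Pcdhgb7*, 1.23 for *Pcdhgb5*, 1.16 for *Pcdhga10*, 1.15 for *Pcdhga11*, 1.02 for *Pcdhgb6*, 0.92 for *Pcdhgb2*, 0.85 for *Pcdhga7* and 0.57 for *Pcdhga3*. In the C-type genes it was 0.37 for *Pcdhgc3*, 0.61 for *Pcdhgc5* and 0.59 for *Pcdhac2*. The call of *Pcdhgc3* was lost under 5 of 25 other settings (limma adjusted p up to 0.0587). In beta it was 0.78 for *Pcdhb16*, 0.65 for *Pcdhb22*, 0.57 for *Pcdhb17* and 0.53 for *Pcdhb20*. *Pcdhgc5* and *Pcdhac2* were called lower on day 5, and on day 7 *Pcdhgc5* was called higher and *Pcdhac2* was not called. As given above, these calls within a day were lost under several other settings.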

How the results depend on the processing

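On day 5, 7 members were called higher and 6 lower. With TPM as deposited these counts were 1 and 10, with quantile normalization 17 and 1, and with scaling to the 75th percentile 3 and 9. With 1 library left out, 4 to 12 were higher and 1 to 6 lower: 12 were higher without replicate 1 of shRNA-RUS, 4 without replicate 1, 2 or 4 of shRNA-CON or replicate 2 of shRNA-RUS, and 1 was lower without replicate 3 of shRNA-CON. Further counts of 3 lower came without replicate 1 of shRNA-CON and without replicate 1, 2 or 3 of shRNA-RUS. The log2 ratios of the sums with TPM as deposited were −0.67 in alpha, −0.16 in beta and 0.11 in gamma. Without *Pcdhgc4* the gamma ratio was 0.02 as scaled and −0.13 with TPM as deposited. On day 7, 2 members were lower, 1 with a filter at 1 TPM and 1 to 2 with a library left out, and 35 were higher, 32 to 34 with a library left out. In shRNA-CON over time, 13 were lower, 8 with TPM as deposited and 12 to 15 with a library left out. With no filter, 1 member (against 0) had a lower knockdown difference on day 7. The causes were not tested. Of the calls of single named members under other settings, 1122 were kept and 67 lost, 48 of these on day 5, and none changed sign. Only calls made in the main fit were followed, and the settings share libraries, so these counts are not independent of each other.

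Replicate numbers did not pair the libraries: deviations of libraries with the same number correlated at −0.105 to 0.033. In the pairing by number, 2 of 8 correlated best with their own number. With a replicate block, 3 members were higher and 1 lower on day 5, and 32 were higher and 1 lower on day 7. The 13 of 22 beta genes that were higher on day 7 became 10 with the block, 11 with scaling to the 75th percentile, and 11 to 14 with a library left out.

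Depth per library is unknown. The authors' base mean had a median of 16.4 in alpha, 108 in beta and 379 in gamma on day 5. On day 7 these medians were 50.5, 234 and 541.5, so alpha genes rest on the fewest reads. Whether this limits the calls of the low alpha genes was not tested. Members that share constant exons depend on how RSEM divided reads.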
